A study of Rattus norvegicus with 29 samples.

Results

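RNA from C6 to C8 dorsal root ganglia of sham rats was compared between week 11 (5 rats) and week 5 (4 rats) by sequencing of poly-A RNA. The ganglia came from the affected side, as the protocols put it for the study as a whole. The groups were set by the arm and week in the sample labels, and together they make up 9 of the 29 libraries of the series, each from another rat. All were Lister Hooded rats, described as elderly in the title of the series. The sample labels call these animals sham and the series text calls them naïve. A cortical stroke and an infusion under the skin of vehicle or of neurotrophin-3 (NT3) are described for the other arms only. Whether the sham rats had surgery, their sex, and the event from which their weeks were counted are not given in the sources used here. Different animals were sampled at each week, so the passing of time and any other difference between the 2 sets of rats cannot be told apart.

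A dorsal root ganglion holds the cell bodies of the sensory neurons of one spinal segment: proprioceptors that report muscle length, low-threshold mechanoreceptors, and peptidergic and non-peptidergic nociceptors. Satellite glia wrap each cell body and Schwann cells wrap the axons. Resident macrophages lie between the neurons and their glia and are known to increase in number after nerve injury, together with complement, antigen presentation and interferon genes. In whole tissue, a lower level of a gene through fewer cells of a type cannot be told apart from less RNA per cell.

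Depth on annotated transcripts was 16703574 to 22773108 reads in week 11 sham libraries and between 18986053 and 20395601 in week 5 sham libraries. Reads outside annotated features made up 25.4%, 27.0%, 34.0%, 31.4% and 33.1% of counted reads in week 11 rats 8, 11, 54, 63 and 81, and 30.8%, 32.4%, 31.6% and 29.8% in week 5 rats 51, 60, 64 and 74. Rats 8 and 11 had the lowest shares of the 9, and the group means were 30.2% ± 3.82 at week 11 (SD, n = 5) and 31.2% ± 1.15 at week 5 (SD, n = 4; exact permutation test, two-sided, p = 0.635). The first principal component of the sham libraries held 56.8% of their variance and placed rat 8 at -65.2 and the other 4 week 11 rats between 2.65 and 38.0, with week 5 rats between -26.3 and 14.8. Rat 8 therefore stood apart: 1798 of 12556 transcripts were over 2-fold lower in it than in the mean of the other week 11 libraries, and 100 were over 2-fold higher. The spread between rats was wider at week 11 (median SD of log2 CPM 0.29) than at week 5 (0.16), and without rats 8 and 11 it was 0.16 at week 11 (n = 3). Markers shared by sensory neurons were plentiful in every library, with 11 genes summing to between 8099 and 12320 CPM (reads scaled to library size) at week 11 and between 9030 and 10280 CPM at week 5, and none was at 0. Levels below are CPM and do not compare genes of different length. Results are given with and without the libraries that stand apart.

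**Figure D1:**
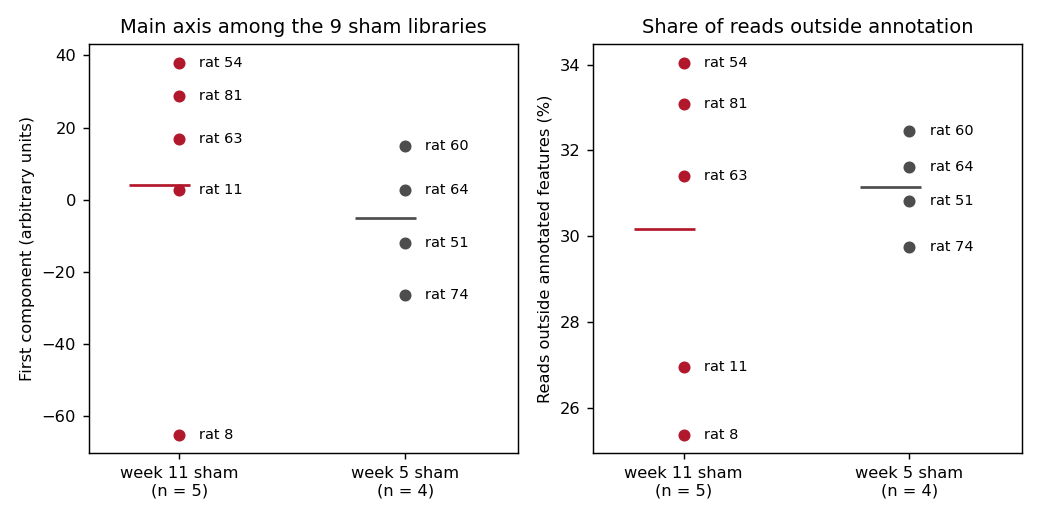
First principal component of the 9 sham libraries (left, arbitrary units) and share of counted reads outside annotated features (right, percent). Each point is the library of 1 rat, and the bar is the group mean. Rat 8 lies lowest in both panels, and rat 11 has the second lowest share.

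No transcript passed the test between week 11 and week 5 sham ganglia. With edgeR's quasi-likelihood test, 0 of 12556 transcripts (0.0%) were called, that is, had a Benjamini-Hochberg adjusted p under 0.05, and the smallest adjusted p was 0.988. At an unadjusted p under 0.05 there were 468 transcripts, 204 higher and 264 lower at week 11. They were 3.73% of those tested, below the rate that this threshold allows by chance. DESeq2 called 1 transcript, lower at week 11. When the share of unannotated reads entered the fit as a covariate, 0 of 12556 (0.0%) were called, 1094 had an unadjusted p under 0.05 and the smallest adjusted p was 0.4355. Levels of the 2 groups did not overlap for 19 transcripts that were higher at week 11 (0.151% of those tested) and for 43 that were lower (0.342%). Groups of 5 and 4 libraries can also separate by chance, so a lack of overlap is given below as a description only. The median log2 fold change (week 11 over week 5) over all tested transcripts was 0.04, and 7711 of 12556 were positive. The direction of single genes and lists is therefore given below as a value, not as a change. This also holds for genes that another fit called, because such calls depended on the libraries, covariate and method used.

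The number of calls depended on libraries and covariate together. Without rat 8, edgeR called 0 transcripts, 1469 had an unadjusted p under 0.05 and the smallest adjusted p was 0.106. Without rats 8 and 27 and with no covariate, 0 were called (1572 at an unadjusted p under 0.05, smallest adjusted p 0.122). Without rat 8 and rat 27, a week 11 vehicle library of 9555685 annotated reads with 37.2% of reads not uniquely aligned, and with the share as a covariate, 732 of 12531 transcripts were called higher (5.84%) and 164 lower (1.31%). This fit is called the adjusted fit below, and counts of list members called in it stand against these shares. A gene named below as called in it is still given as a value. Without the covariate, or with rat 11 left out as well, 0 transcripts were called. Without rat 8 alone and with the covariate there were 15 calls, and leaving out rat 11 as well as rats 8 and 27 left 0. Limma voom with quality weights on all 29 libraries called 1408 transcripts higher (11.2%) and 801 lower (6.38%), with a weight of 0.11 for rat 8 and 6.31 for rat 81. The adjusted fit and voom shared 843 calls, all in the same direction, which were 94.1% of the calls of the adjusted fit and 38.2% of those of voom.

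The calls of the adjusted fit lay along the axis that set rat 8 apart. Of the 732 transcripts called higher at week 11, 726 (99.2%) had a positive weight on the first component of the sham libraries. Over all tested transcripts 50.5% did. Because the component was computed with the libraries that also made these calls, its weights are no independent check on them. Rat 8, which was not in that fit, was the lowest of the 9 sham libraries for 663 of the 732 (90.6%), against 31.6% of all tested transcripts. Of the 164 called lower, 8 had a positive weight, and rat 8 was the highest of the 9 libraries for 87 (53.0%), against 24.2% of all tested transcripts. Position on the axis also went with the share of unannotated reads over the 9 sham libraries (Pearson r = 0.837, exact permutation p = 0.00991; Spearman rho = 0.833, exact permutation p = 0.00827). Without rats 8 and 11, the 2 farthest from the median share, Pearson r was 0.952 (n = 7, exact permutation p = 0.00159). The part of this axis in the calls was not tested.

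Macrophage markers had the highest median of the lists examined, and the medians are described without a test. Of 24 tested macrophage markers, 20 were positive and the median log2 fold change was 0.38, against 0.04 over all transcripts. The summed level of the 25 matched markers lay between 383 and 766 CPM in week 11 libraries and between 366 and 569 CPM in week 5 libraries, so the groups overlapped, and Ptprc (CD45) was listed at 0 in all 9. Without rat 8 the median was 0.50, and without rats 8 and 11 it was 0.40. In the adjusted fit 3 of the 24 markers were called higher (Msr1, Trem2 and Tyrobp), against the 5.84% called over all transcripts, and none was called lower.

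Trem2, a lipid-sensing receptor of macrophages and microglia, was at 3.70, 9.22, 4.73, 12.2 and 7.54 CPM in week 11 rats 8, 11, 54, 63 and 81 and at 2.70, 3.25, 5.43 and 4.11 CPM in week 5 rats 51, 60, 64 and 74. Week 11 rats 11, 63 and 81 were above every week 5 rat, and rats 8 and 54 lay within the week 5 range. Its log2 fold change was 0.95 (SE 0.35, unadjusted p = 0.0106), and 1.12 in the adjusted fit (SE 0.31, adjusted p = 0.0318). Tyrobp, the adaptor through which TREM2 signals, averaged 9.60 ± 2.65 CPM at week 11 (SD, n = 5) and 6.56 ± 1.38 CPM at week 5 (SD, n = 4), with overlapping groups. Msr1, a scavenger receptor whose values were seen before it was named, was at 0.303 CPM in rat 8 and between 1.21 and 1.95 CPM in the other 4 week 11 rats, against 0.250 to 1.05 CPM at week 5.

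Lilrb4, an inhibitory receptor of myeloid cells, was at 0.363, 5.72, 3.30, 3.78 and 3.98 CPM in week 11 rats 8, 11, 54, 63 and 81, against 0.95, 1.04, 0.844 and 1.01 CPM in week 5 rats 51, 60, 64 and 74. All week 11 rats but rat 8 were above the 4 week 5 rats, and rat 8 was below them all. The log2 fold change was 1.83 (SE 0.56, unadjusted p = 0.003), and 2.17 in the adjusted fit (SE 0.43, adjusted p = 0.0146). When only the 2 sham groups were fitted without rat 8, Lilrb4 was the 1 transcript called by edgeR, with a log2 fold change of 2.06 (adjusted p = 0.0103). That fit was added after the data were seen. Like the adjusted fit, it leaves out the week 11 rat that went against the difference, so its call is no independent support. With rat 8 kept, the fit of the 2 sham groups called 0 transcripts.

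Antigen presentation genes were all positive, and none was called by edgeR or in the adjusted fit. Their median log2 fold change was 0.17 with 14 of 14 tested members positive, and 0.07 without rats 8 and 11. Cd74, the invariant chain of MHC class II, was at 44.5, 103, 58.9, 77.1 and 66.2 CPM in week 11 rats and at 40.8, 50.5, 50.6 and 79.2 CPM in week 5 rats, which overlapped (log2 fold change 0.34, SE 0.47). Cd6, a co-receptor of T cells that was not in the list of lymphocyte markers, was at 2.97, 3.28, 1.15, 2.91 and 2.18 CPM in week 11 rats and at 1.10, 1.38, 1.16 and 1.32 CPM in week 5 rats. Week 11 rat 54 lay within the week 5 range, and the other 4 were above it (log2 fold change 1.01, SE 0.31, adjusted p = 0.988, and 0.93 with adjusted p = 0.0232 in the adjusted fit). The 18 matched lymphocyte markers summed to between 16.1 and 26.8 CPM at week 11 and between 14.6 and 22.4 CPM at week 5, and 4 of them passed the filter on low counts.

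Complement genes were positive for 18 of 22 members, with a median of 0.17, and 0.33 without rat 8. C4a, which encodes the fourth complement component, was at 125, 115, 131, 190 and 149 CPM in week 11 rats and at 98.4, 85.0, 85.8 and 140 CPM in week 5 rats, where rat 74 alone reached the week 11 range (log2 fold change 0.47, SE 0.22). C4a and C4b are near-identical copies, so reads could have been split between them. C3, the central component, averaged 30.8 ± 7.46 CPM at week 11 and 25.6 ± 12.7 CPM at week 5, a difference within the spread. C1rl, a protease related to C1r that stood outside the list, was at 2.85, 5.00, 4.18, 4.95 and 3.18 CPM at week 11 and at 2.75, 2.07, 2.06 and 2.29 CPM at week 5, with no overlap and a log2 fold change of 0.82 (SE 0.22, unadjusted p = 0.00109).

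**Figure D2:**
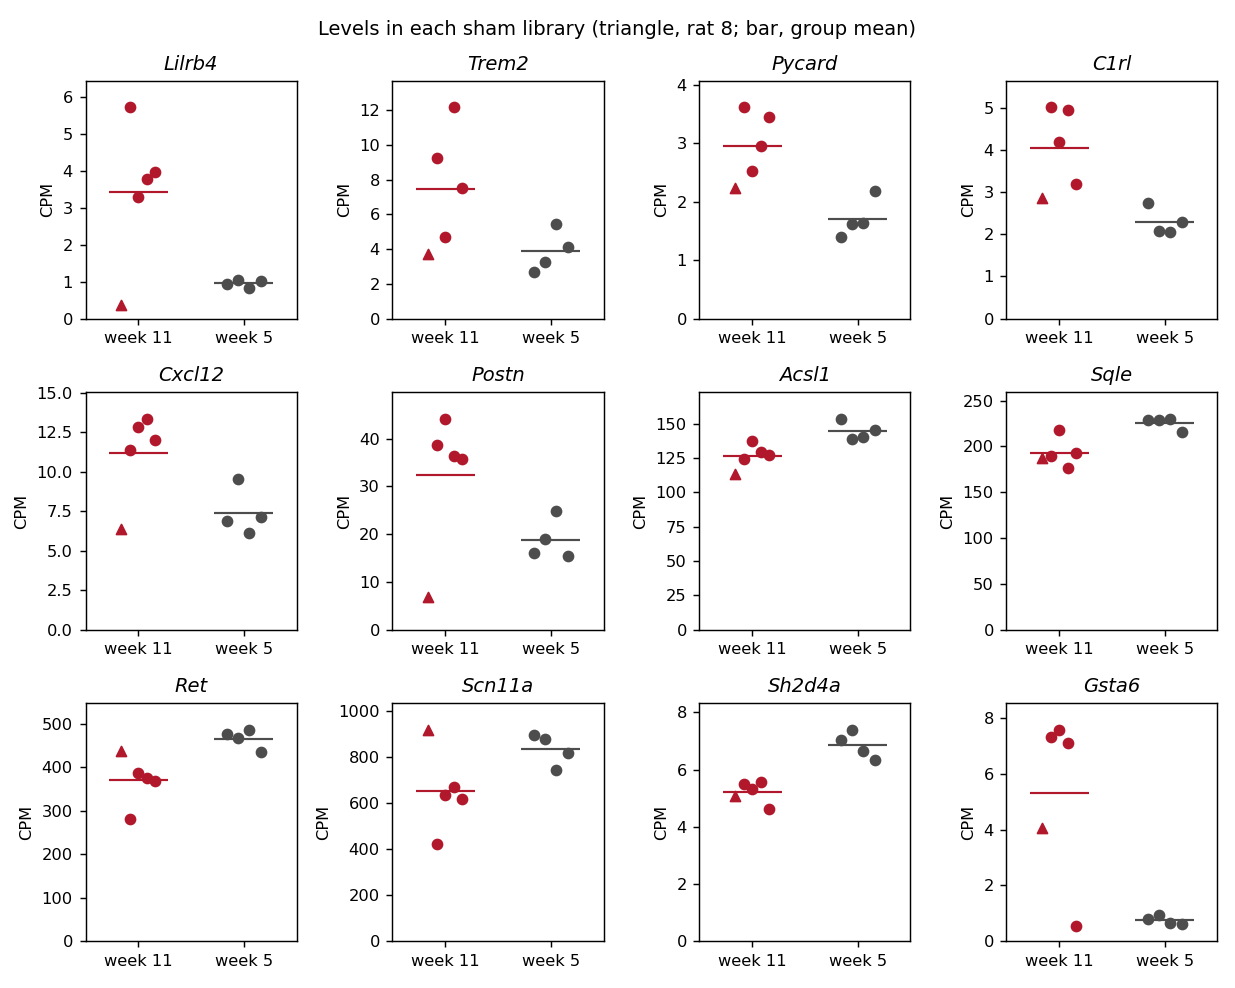
CPM of 12 genes in each sham library, on linear axes from 0. Red, week 11 rats; grey, week 5 rats; triangle, rat 8; bar, group mean. Rat 8 is the lowest week 11 library for Lilrb4, Trem2, Pycard, C1rl, Cxcl12, Postn and Acsl1 and the highest for Ret and Scn11a, while week 11 rat 81 has 0.531 CPM of Gsta6.

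Pycard, the adaptor (ASC) that links inflammasome sensors to caspase-1, was at 2.24, 3.61, 2.53, 2.95 and 3.45 CPM at week 11 and at 1.40, 1.63, 1.64 and 2.18 CPM at week 5, with no overlap (log2 fold change 0.79, SE 0.22, unadjusted p = 0.00141). Il18, a cytokine that caspase-1 matures, was at 1.27 CPM in rat 8 and between 2.75 and 4.06 CPM in the other week 11 rats, against 1.30 to 1.93 CPM at week 5. Cxcl12, a chemokine that attracts leukocytes through CXCR4, was at 6.36 CPM in rat 8 and between 11.4 and 13.4 CPM in the other week 11 rats, against 6.12 to 9.52 CPM at week 5. Rat 8 lay within the week 5 range for Cxcl12 and just below it for Il18, and the other 4 week 11 rats were above it for both genes. Of 24 tested cytokine and chemokine genes, 16 were positive (median 0.08), and Il18, Cxcl12 and Tlr4 were the 3 called higher in the adjusted fit (5.84% of all transcripts were). Tlr4, the receptor of bacterial lipopolysaccharide, was chosen after its values were seen and had a log2 fold change of 0.33 (SE 0.34) with all libraries and 0.51 (adjusted p = 0.0494) in the adjusted fit.

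Interferon stimulated genes were positive for 22 of 26 members, with a median of 0.25, and 0.32 without rat 8. Oasl, an antiviral protein of the oligoadenylate synthetase family, was at 5.51, 11.4, 5.66, 6.08 and 6.21 CPM at week 11 and at 5.25, 3.55, 5.22 and 5.28 CPM at week 5. The groups did not overlap, but 4 of the 5 week 11 rats lay less than 1 CPM above the highest week 5 rat, and rat 11 held the highest value. Isg15, a ubiquitin-like modifier, was at 6.85, 15, 6.21, 8.94 and 10.6 CPM at week 11 and between 4.83 and 8.30 CPM at week 5, again with rat 11 highest. Ifit2 was the 1 of 26 members called in the adjusted fit (0.90, SE 0.23, adjusted p = 0.0232), where 5.84% of all transcripts were called higher. It was chosen after its values were seen. Ifit2 was at 2.36 CPM in rat 8 and between 14.8 and 18.7 CPM in the other week 11 rats, against 4.87 to 12.5 CPM at week 5.

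Proliferation genes were expressed at low levels and were positive for 19 of 22 members (median 0.23, and 0.32 without rat 8). Cenpf, a kinetochore protein made in dividing cells, was at 0.242, 1.00, 0.495, 0.781 and 1.22 CPM at week 11 and at 0.100, 0.395, 0.316 and 0.254 CPM at week 5. All week 11 rats but rat 8 were above week 5, and the log2 fold change was 1.48 (SE 0.60). Aurkb, a mitotic kinase, averaged 0.730 ± 0.297 CPM at week 11 and 0.357 ± 0.254 CPM at week 5, with overlap. In the adjusted fit 4 of the 22 were called higher, Cenpf and Prc1 among them, where 5.84% of all transcripts were. Prc1, which bundles microtubules of the spindle and was chosen after its values were seen, was at 1.57 CPM in rat 8 and between 3.61 and 4.38 CPM in the other week 11 rats, against 1.68 to 3.06 CPM at week 5.

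Matrix and vessel genes gave few differences. Of 17 tested fibroblast and matrix genes 12 were positive, with a median of 0.07. Postn (periostin), a matrix protein of activated fibroblasts and Schwann cells, was at 6.79 CPM in rat 8 and at 38.7, 44.2, 36.4 and 35.7 CPM in week 11 rats 11, 54, 63 and 81, against 16, 18.9, 24.8 and 15.3 CPM in week 5 rats 51, 60, 64 and 74. Rat 8 was below every week 5 rat and the other 4 week 11 rats were above them all. The log2 fold change was 0.79 (SE 0.32), and 1.04 in the adjusted fit (SE 0.19, adjusted p = 0.0146), where Postn was the 1 member called. Of 22 endothelial and pericyte markers 20 were positive (median 0.11, and 0.24 without rats 8 and 11). Eng (endoglin), a co-receptor for transforming growth factor beta on endothelium, averaged 43.2 ± 3.80 CPM at week 11 and 33.7 ± 4.69 CPM at week 5 (log2 fold change 0.36, SE 0.15). Kcnj8, a potassium channel subunit of pericytes, averaged 3.75 ± 1.38 CPM at week 11 and 2.51 ± 0.269 CPM at week 5. It was the 1 member called in the adjusted fit (adjusted p = 0.0442). Postn and Kcnj8 were thus 1 of 17 and 1 of 22 tested members, where 5.84% of all transcripts were called higher.

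Non-peptidergic nociceptor markers gave the lowest median of the lists examined. Of 7 tested markers of non-peptidergic nociceptors 1 was positive and the median was -0.23, and -0.44 without rat 8. Scn11a, the sodium channel Nav1.9 of small sensory neurons, was at 918, 420, 635, 667 and 616 CPM in week 11 rats 8, 11, 54, 63 and 81, against 896, 880, 745 and 816 CPM in week 5 rats 51, 60, 64 and 74. Rat 8 was the highest of all 9 libraries and the other 4 week 11 rats were below every week 5 rat (log2 fold change -0.36, SE 0.14, and -0.51 with adjusted p = 0.0222 in the adjusted fit). Scn10a, the related channel Nav1.8, was also highest in rat 8, at 1326 CPM in rat 8 and 563 to 985 CPM in the other week 11 rats against 901 to 1110 CPM at week 5, with overlap (log2 fold change -0.22, SE 0.15). Gfra2, the receptor of neurturin on these cells, was chosen after its values were seen and was at 241 CPM in rat 8 and between 116 and 156 CPM in the other week 11 rats, against 176 to 188 CPM at week 5. It was called lower in the adjusted fit (-0.43, adjusted p = 0.0237), as was Scn11a. They were 2 of the 7 tested markers, where 1.31% of all transcripts were called lower, and no marker was called higher. Mrgprb4, a receptor of touch-sensitive C fibres in mice, averaged 95.3 ± 20.5 CPM at week 11 and 118 ± 13.1 CPM at week 5 and was not called.

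Ret, the signalling receptor of the GDNF family that works together with Gfra2, was at 437, 282, 386, 376 and 368 CPM in week 11 rats and at 476, 468, 487 and 435 CPM in week 5 rats. Week 11 rat 8 exceeded week 5 rat 74 by a few CPM and the other 4 were below week 5. The log2 fold change was -0.34 (SE 0.10, unadjusted p = 0.00198, adjusted p = 0.988), and -0.41 in the adjusted fit (adjusted p = 0.0177). The files list 2 transcripts for Ret, Ntrk2, Syn2 and Pclo and 3 for Cxcl12, and counts per transcript can miss shared reads, so the level of the 1 transcript given for each may not be its full expression. Neurotrophin receptors Ntrk2 (TrkB) and Ngfr (p75) differed by less than the spread. Ntrk2 averaged 287 ± 67.7 CPM at week 11 and 296 ± 26.0 CPM at week 5, and Ngfr averaged 928 ± 238 CPM at week 11 and 949 ± 35.6 CPM at week 5, with log2 fold changes for Ntrk2 and Ngfr of -0.05 (SE 0.13) and -0.03 (SE 0.14) whose sign turned under other settings.

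Markers of peptidergic nociceptors were positive for 5 of 10 tested members (median 0.02), and Tac1 was listed at 0. Calca, the gene of the peptide CGRP and of calcitonin, is listed with 3 transcripts, which share reads, so the level given is not its full expression. The one that passed the filter on low counts was at 2.67, 2.61, 4.95, 4.86 and 4.46 CPM at week 11 and at 4.45, 7.45, 5.69 and 5.43 CPM at week 5 (log2 fold change -0.55, SE 0.27, adjusted p = 0.988). Week 5 rat 51 lay within the week 11 range and the other 3 were above it. Trpv1, the capsaicin receptor, was chosen after its values were seen as the 1 member called lower in the adjusted fit (-0.26, adjusted p = 0.0227), and was at 268 CPM in rat 8 and between 177 and 194 CPM in the other week 11 rats, against 209 to 237 CPM at week 5. Markers of proprioceptors and other large neurons were positive for 11 of 13 members (median 0.13). The 1 member with an unadjusted p under 0.05 was Ret, described above, which was lower (-0.34). In the adjusted fit 1 of the 13 was called higher and 1, Ret, lower. Over all transcripts 5.84% were called higher in that fit and 1.31% lower. Pvalb, a calcium buffer of proprioceptors, averaged 183 ± 41.5 CPM at week 11 and 168 ± 20.2 CPM at week 5 and did not differ beyond the spread.

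Voltage-gated channels had values in both directions. Of 47 tested channel genes 18 were positive, and the adjusted fit called 3 higher and 4 lower, where 5.84% of all transcripts were called higher and 1.31% lower. Scn3b, a sodium channel beta subunit, was at 154, 115, 146, 151 and 141 CPM at week 11 and at 188, 176, 176 and 172 CPM at week 5, with no overlap (log2 fold change -0.33, SE 0.11, and -0.37 with adjusted p = 0.0286 in the adjusted fit). Kcna6, a potassium channel of axons, was chosen after its values were seen and was at 329 CPM in rat 8 and between 173 and 238 CPM in the other week 11 rats, against 270 to 294 CPM at week 5. Scn9a, the sodium channel Nav1.7 and likewise chosen after its values were seen, was lowest in rat 8, at 80.3 CPM in rat 8 and between 248 and 568 CPM in the other week 11 rats, against 178 to 440 CPM at week 5. Its log2 fold change was 0.36 (SE 0.47), and 0.59 in the adjusted fit (adjusted p = 0.0436). Kcna2, a potassium channel next to the node of Ranvier, averaged 58.7 ± 22 CPM at week 11 and 73.4 ± 17.7 CPM at week 5, within the spread.

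Synaptic genes gave a median near 0. Of 47 tested synapse and vesicle genes 20 were positive (median -0.01). Pclo (piccolo), a large scaffold of the presynaptic active zone chosen after its values were seen, was at 2.30 CPM in rat 8, 8.67 CPM in rat 11 and between 16.8 and 19.7 CPM in rats 54, 63 and 81, against 4.82 to 12.9 CPM at week 5, and was called higher in the adjusted fit (0.95, adjusted p = 0.0163). Syn2 (synapsin 2), which tethers synaptic vesicles, averaged 102 ± 9.00 CPM at week 11 and 116 ± 8.57 CPM at week 5 and was called lower there (-0.23, adjusted p = 0.0198). Of the 47 members, 1 was called higher and 2 lower in that fit. Over all transcripts 5.84% were called higher and 1.31% lower. Smad1, a transcription factor tied to axon growth in sensory neurons, was at 70.5 CPM in rat 8 and between 52.7 and 57.0 CPM in the other week 11 rats, against 62.7 to 68.4 CPM at week 5. It was the 1 of 19 tested axon injury genes called in the adjusted fit (-0.24, adjusted p = 0.0146), where 1.31% of all transcripts were called lower. Atf3, which neurons switch on after axon injury, averaged 21.4 ± 2.31 CPM at week 11 and 21.6 ± 5.42 CPM at week 5 (log2 fold change -0.01, SE 0.20).

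Glial lists gave small medians. Markers of myelinating Schwann cells were positive for 15 of 18 members with a median of 0.08. Gldn (gliomedin), which gathers sodium channels at nodes, averaged 66.7 ± 7.25 CPM at week 11 and 54.4 ± 4.70 CPM at week 5 (0.29, SE 0.14). Cdh19, a cadherin of Schwann cell precursors and glia, was at 15 CPM in rat 8 and between 111 and 179 CPM in the other week 11 rats against 46.5 to 113 CPM at week 5, and was called higher in the adjusted fit (1.10, adjusted p = 0.0146). It was the 1 called of 8 tested markers of non-myelinating and repair Schwann cells, where 5.84% of all transcripts were called higher. L1cam, an adhesion molecule of non-myelinating Schwann cells and axons, averaged 835 ± 197 CPM at week 11 and 956 ± 80.8 CPM at week 5. Markers of satellite glia were positive for 8 of 12 members with a median of 0.08. The 1 member with an unadjusted edgeR p under 0.05 was Cdh1, which was lower (-0.19, unadjusted p = 0.0458).

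Cholesterol synthesis genes had mostly negative fold changes. Of 24 tested members 20 were negative, the median was -0.08, and 5 had an unadjusted p under 0.05, all lower, where 264 of 12556 transcripts did so. Sqle, the epoxidase that commits squalene to sterols, was at 187, 190, 218, 177 and 193 CPM in week 11 rats and at 228, 229, 230 and 215 CPM in week 5 rats, with rat 54 above week 5 rat 74 (log2 fold change -0.23, SE 0.07, and -0.22 with adjusted p = 0.0345 in the adjusted fit). In the adjusted fit 2 of the 24 were called lower, where 1.31% of all transcripts were, and none was called higher. The median of the list was -0.13 without rat 8 and -0.12 without rats 8 and 11. Of 17 tested genes of fatty acid synthesis and elongation 6 were positive (median -0.05), with 1 higher and 1 lower at an unadjusted p under 0.05. The higher one was Mlxipl (ChREBP), a glucose-responsive transcription factor, at 0.788, 2.89, 1.87, 3.08 and 2.76 CPM in week 11 rats and at 1, 0.888, 1.00 and 1.68 CPM in week 5 rats. Rat 8 was below every week 5 rat and the other week 11 rats were above them (log2 fold change 1.00, SE 0.39, and 1.21 with adjusted p = 0.0263 in the adjusted fit). The lower one, Acsl1, which activates long-chain fatty acids, was at 114, 124, 137, 130 and 128 CPM at week 11 and at 154, 139, 141 and 145 CPM at week 5 with no overlap. Cpt1b, which was not in that list and passes fatty acids into mitochondria, averaged 6.06 ± 1.42 CPM at week 11 and 8.40 ± 1.12 CPM at week 5, with overlap (log2 fold change -0.47, SE 0.13).

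Ribosomal and respiratory chain genes were highest in rats 8 and 11. All 77 tested ribosomal protein genes were positive, with a median of 0.15, but the median was 0.12 without rat 8 and -0.02 without rats 8 and 11. Their mean log2 CPM was 7.15 in rat 8 and 7.32 in rat 11, against 6.72 to 6.85 in the other week 11 rats and 6.69 to 6.93 in week 5 rats. Genes of the respiratory chain were positive for 66 of 72 members (median 0.09), and without rats 8 and 11 their median was -0.10. None of the members of either list was called in the adjusted fit.

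**Figure D3:**
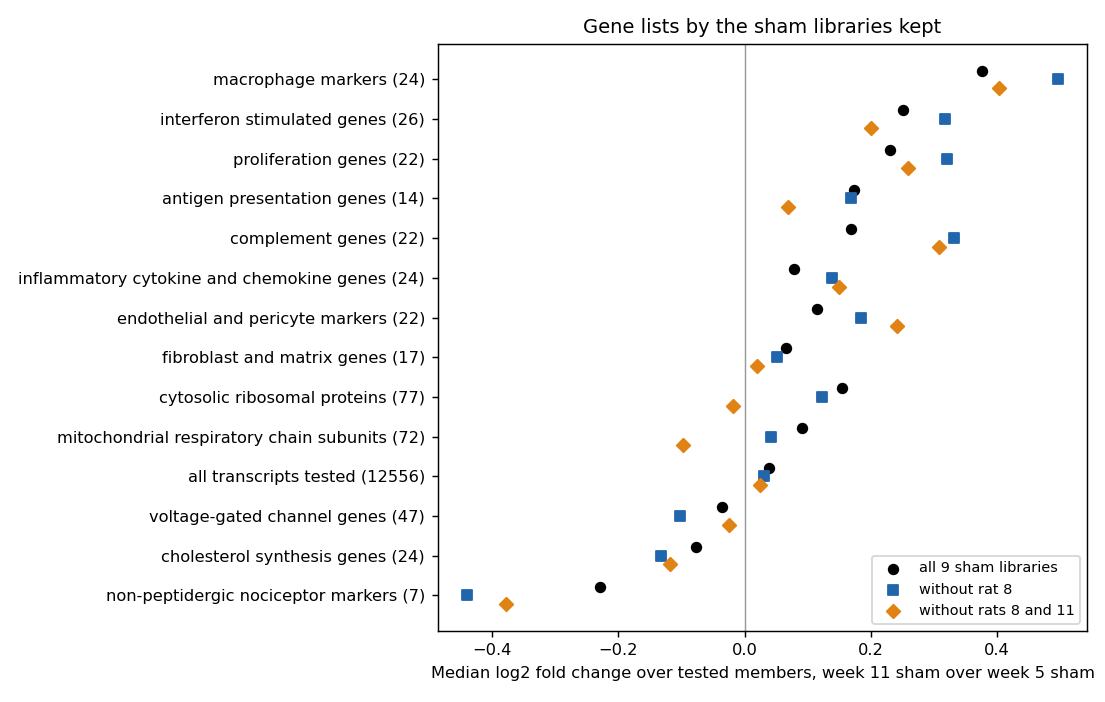
Median log2 fold change (week 11 over week 5 sham) over the tested members of each gene list, number of members in brackets, with all 9 sham libraries, without rat 8, and without rats 8 and 11. Macrophage, complement and proliferation lists stay positive and cholesterol and non-peptidergic nociceptor lists stay negative in all 3 sets, while the ribosomal and respiratory chain medians are below 0 without rats 8 and 11.

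The smallest unadjusted p-values in both directions mixed several kinds of gene. Sh2d4a, an adaptor protein with an SH2 domain, averaged 5.22 ± 0.383 CPM at week 11 and 6.86 ± 0.460 CPM at week 5, with no overlap (-0.39, SE 0.11). Fbxl22, an F-box protein, averaged 19.6 ± 2.98 CPM at week 11 and 25.2 ± 1.55 CPM at week 5, with no overlap. Gcnt2, a glycosyltransferase, averaged 135 ± 15.5 CPM at week 11 and 171 ± 8.82 CPM at week 5, and Ncald, a calcium sensor of neurons, was at 355 CPM in rat 8 and between 280 and 309 CPM in the other week 11 rats, against 331 to 374 CPM at week 5, and each overlapped through rat 8 alone.

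Gsta6, a glutathione S-transferase, had the largest log2 fold change among the named genes, 2.83 (SE 0.90, unadjusted p = 0.00418, adjusted p = 0.988). It was at 4.06, 7.34, 7.58, 7.12 and 0.531 CPM in week 11 rats 8, 11, 54, 63 and 81, against 0.8, 0.937, 0.633 and 0.609 CPM in week 5 rats 51, 60, 64 and 74. All week 11 rats but rat 81 were above every week 5 rat, and rat 81 was below them all. Gsta6 also varied widely between rats in the stroke arms. It ranged from 0.913 to 10.9 CPM in vehicle rats and 0.799 to 19.2 CPM in NT3 rats at week 11. At week 5 it ranged from 8.56 to 16.4 CPM in vehicle rats and 0.796 to 12.3 CPM in NT3 rats. Its log2 fold change between the weeks was -1.29 (SE 0.69) in vehicle and 0.67 (SE 0.68) in NT3 rats. Other glutathione S-transferases are close copies, and reads could have been split between them. Fxyd1, a regulator of the sodium pump, was at 155, 200, 141, 199 and 150 CPM at week 11 and at 131, 136, 128 and 140 CPM at week 5, with no overlap (0.34, SE 0.11). Ucn2 (urocortin 2), a peptide of the stress hormone family, averaged 1.67 ± 0.685 CPM at week 11 and 0.822 ± 0.319 CPM at week 5. Spata24, Serpinb6b and Renbp, the last a renin-binding protein, had log2 fold changes of 0.47, 0.65 and 0.40, and all 3 were called higher in the adjusted fit.

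The values of 2 immediate early genes rested on 1 library. Fosb was at 5.27, 2.06, 1.48, 2.56 and 1.17 CPM in week 11 rats and at 1.2, 27.1, 1.53 and 4.52 CPM in week 5 rats. Fos, its close relative and like it switched on within minutes by neuronal activity or handling, was between 9.45 and 24.4 CPM at week 11 and at 86.4 CPM in week 5 rat 60, with 6.25 to 10.9 CPM in the other 3 week 5 rats. Their log2 fold changes were -1.79 (SE 0.61) and -0.85 (SE 0.47), and without rat 60 they were 0.04 and 0.77. Fosb was called lower in the adjusted fit, which holds rat 60 (-2.21, adjusted p = 0.0412). Hspa1a, an inducible heat shock protein, was also highest in rat 60 at 49.5 CPM, against 18.2 to 42.5 CPM in the other week 5 rats and 12.8 to 29 CPM at week 11, and was called lower in the adjusted fit (-0.92, adjusted p = 0.0259). Of the 16 tested clock genes 7 were positive. Cry1, a clock repressor, averaged 10.9 ± 0.892 CPM at week 11 and 13.3 ± 0.802 CPM at week 5, with no overlap (-0.29, SE 0.16). Igfbp3, a secreted binding protein that is often counted among senescence genes, averaged 26.9 ± 5.57 CPM at week 11 and 19.3 ± 3.17 CPM at week 5 (0.48, SE 0.18), in a list of which 9 of 16 tested members were positive.

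Markers of tissues that could be carried along at dissection overlapped between the weeks. Skeletal muscle markers summed to between 24.5 and 33.1 CPM at week 11 and between 27.8 and 37.6 CPM at week 5, with Tnnt3 at 0. Adipocyte markers summed to between 33.7 and 36.0 CPM at week 11 and between 32.4 and 36.5 CPM at week 5. Brain and spinal cord genes, some of which sensory neurons also make, summed to between 404 and 558 CPM at week 11 and between 440 and 477 CPM at week 5. Their median was 0.06 over 13 tested. The sum was highest in rat 8, but the mean log2 CPM of the tested members was lowest in it. That mean was 2.24 in rat 8, 2.46 to 2.82 in the other week 11 rats and 2.25 to 2.54 at week 5. In the adjusted fit 1 of the 13, Gad1, was called higher (0.77, adjusted p = 0.0381), where 5.84% of all transcripts were. Erythroid genes summed to between 99.4 and 151 CPM at week 11, highest in rat 11, and between 103 and 129 CPM at week 5. Their median was 0.22 with 6 of 7 positive, and -0.05 without rats 8 and 11. Genes listed at 0, such as Aqp4, Tac1, Ptprc and Col1a2, are not read as absent. The part of these cells in the results was not tested.

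The change between the weeks was also set against that in the stroke arms, which share no library with the sham groups. No transcript was called for the difference between the change in sham rats and the mean change in both stroke arms (0 of 12556, 0.0%), nor against the vehicle arm (0.0%) or the NT3 arm (0.0%) alone, with 223, 384 and 186 transcripts at an unadjusted p under 0.05. DESeq2 called 1 transcript against vehicle, Clec10a, and voom with quality weights called Tp53inp2 in each of the 3, as the 1 call against both arms together and against vehicle and 1 of 5 calls against NT3, the others being Wdr93, Chaf1b, Mcu and Stk31, all chosen after their values were seen. Clec10a, a lectin of tissue macrophages, was at 4.54, 6.84, 5.66, 7.38 and 7.96 CPM in week 11 sham rats and at 7.30, 7.05, 9.38 and 8.88 CPM in week 5 sham rats (log2 fold change -0.33, SE 0.22). In vehicle rats its log2 fold change was 1.2 (SE 0.22) and in NT3 rats 0.04 (SE 0.21), and the difference of sham against vehicle was -1.53 (edgeR adjusted p = 0.456, DESeq2 adjusted p = 0.0152).

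Side by side, the macrophage list had a median week change of 0.38 in sham rats, 1.30 in vehicle rats and 0.38 in NT3 rats. Antigen presentation genes had 0.17 in sham, 0.72 in vehicle and 0.00 in NT3 rats. Cd74 had a log2 fold change of 0.34 (SE 0.47) in sham, 2.50 (SE 0.47) in vehicle and 0.13 (SE 0.45) in NT3 rats, and C3 had 0.27 (SE 0.44) in sham, 1.96 (SE 0.43) in vehicle and 0.63 (SE 0.41) in NT3 rats. For Tyrobp the values were 0.55 (SE 0.23) in sham, 1.50 (SE 0.22) in vehicle and 0.43 (SE 0.21) in NT3 rats. Trem2 was positive in each arm, at 0.95, 1.13 and 0.86. Part of the vehicle values came from rat 27 at week 11. Without it the vehicle median was 0.95 for macrophage markers and 0.29 for antigen presentation genes, and the vehicle log2 fold change was 1.29 for Cd74 (SE 0.26), 1.17 for C3 (SE 0.33) and 1.2 for Tyrobp (SE 0.18). For Clec10a the difference of sham against vehicle was then -1.27 (edgeR adjusted p = 0.63). The non-peptidergic nociceptor list had a median of -0.23 in sham, -0.34 in vehicle and -0.03 in NT3 rats, and Scn11a had -0.36 (SE 0.14), -0.33 (SE 0.13) and 0.00 (SE 0.13). Gal (galanin), a neuropeptide induced in injured sensory neurons, had log2 fold changes of opposite sign, 0.33 (SE 0.16) in sham rats, against -0.36 (SE 0.15) in vehicle and -0.31 (SE 0.15) in NT3 rats. The difference of sham against both stroke arms was 0.67 for Gal (SE 0.20) and did not pass the adjustment (edgeR adjusted p = 0.9998). None of these differences between arms passed the edgeR test.

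**Figure D4:**
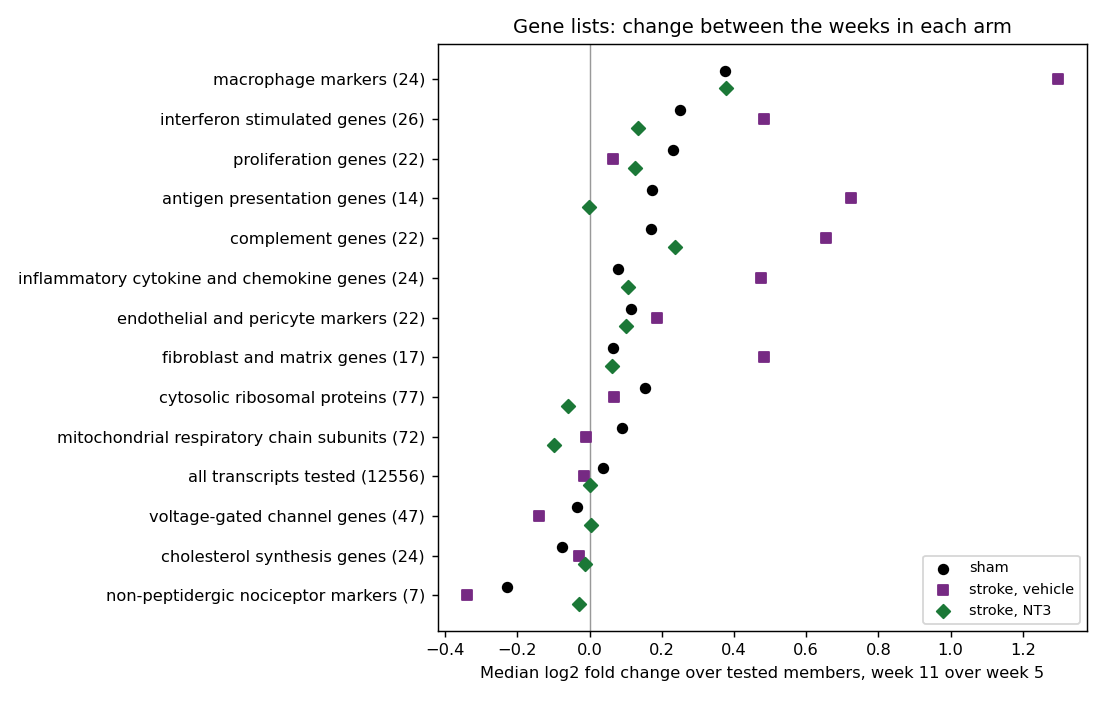
Median log2 fold change between week 11 and week 5 over the tested members of each gene list in sham, vehicle and NT3 rats, number of members in brackets. The macrophage median is 0.38 in sham, 1.30 in vehicle (0.95 without rat 27) and 0.38 in NT3 rats, and the differences between arms were not called for any transcript by edgeR.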

How the data were processed

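Poly-A RNA was sequenced with a stranded kit from 1 library per rat, with RNA integrity numbers above 7.6 per the labels' protocols. Per the submitters' processing notes, bcl2fastq 1.8.4, TopHat2, Picard and HTSeq were used with build rn6 (Rnor_6.0), and the role of each tool is not given. The deposited files hold whole-number counts per RefSeq transcript, not normalized, after removal of duplicates as the file names have it. Of 18092 transcripts 17090 matched a symbol in a RefSeq table of a later assembly, used for names only. Reads that fit no annotated feature are listed apart and stay out of library sizes.

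All 29 libraries were fitted with edgeR 4.0.16 in R 4.3.3 (filterByExpr with minimum count 10 and minimum total 15, TMM, 6 group means, quasi-likelihood F-test). The SE of a log2 fold change was taken from its F statistic, and p-values were adjusted by Benjamini-Hochberg within a contrast at 0.05. CPM values are scaled by TMM, and log2 CPM used a prior count of 2. DESeq2 1.42.0, limma 3.58.1 voom with quality weights, other filters, normalizations and libraries, and a covariate for the share of unannotated reads were alternatives. The pipeline was tested on simulated data. These had the same spread in every group and no library that stood apart. They therefore do not bear on how the calls depended on the libraries kept. No set test was run, and lists are described by counts and medians.

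The comparison, the gene lists and the rule for named genes were chosen with earlier results of these data known. The rule took, where nothing was called, the 10 smallest unadjusted p each way at 1 CPM or more, the 2 smallest p per list, a fixed set and the 5 smallest p for each difference between arms and with the covariate, and the text names fewer; some genes are not reported here. Alternatives without rat 8 with the covariate, without rats 8 and 11, and without rats 8, 11 and 27, and those of the sham groups alone without rat 8, were added after the data were seen.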

Additional observations from a re-analysis of the deposited data

Results flagged for a closer look

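Single libraries stood far from the rest of their group for 14 of 162 values checked in groups of 4 or 5. Chance flags about 1 in 20 groups, but these genes are correlated and were chosen by their p-values or after their values were seen, Ifit2, Trpv1 and Prc1 among them, so the number of flags is not set against that rate. Of the 14, 7 were in rat 8. Among week 11 sham rats, rat 8 was the lowest for Cxcl12 (6.36 CPM, others 11.4 to 13.4), Postn (6.79 CPM, others 35.7 to 44.2), Ifit2 (2.36 CPM, others 14.8 to 18.7), Prc1 (1.57 CPM, others 3.61 to 4.38) and the mean log2 CPM of proliferation genes (1.68, others 2.24 to 2.38). It was the highest for Smad1 (70.5 CPM, others 52.7 to 57.0) and Trpv1 (268 CPM, others 177 to 194). Week 11 rat 11 was the highest for Oasl (11.4 CPM, others 5.51 to 6.21) and Spata24 (6.84 CPM, others 4.25 to 4.91).

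Among week 5 sham rats, rat 60 was the highest for Fosb (27.1 CPM, others 1.2 to 4.52) and Fos (86.4 CPM, others 6.25 to 10.9) and the lowest for Oasl (3.55 CPM, others 5.22 to 5.28). Rat 74 was the lowest for Sqle (215 CPM, others 228 to 230) and the highest for Mlxipl (1.68 CPM, others 0.888 to 1).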

How the results depend on the processing

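The count of 0 calls between the weeks in sham ganglia held under other size factors, with no filter on low counts, in the smaller deposited table, when the sham groups alone were fitted, with the covariate, without rats 8 and 27, without rats 8 and 11, without rats 8, 11 and 27 with the covariate, and without each library in turn (range 0 to 0). It was 1 with DESeq2, 2209 with voom quality weights, 896 without rats 8 and 27 with the covariate, 15 without rat 8 with the covariate, 1 with only the sham groups without rat 8 and 230 with these and the covariate. For the differences of the week change, voom called 1 transcript against both stroke arms, 1 against vehicle and 5 against NT3, and DESeq2 called 1 against vehicle. The cause was not tested. The share of reads outside annotated features differed by -0.987 percentage points (week 11 minus week 5), and between -1.96 and 0.212 without 1 library, the last without rat 8.

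Of 1604 values for 67 genes under alternatives, 19 changed sign and 106 passed the threshold. Pvalb was at -0.026 without rats 8, 11 and 27 with the covariate. Ntrk2 was at 0.024 with voom, 0.015 without rats 8 and 27, 0.163 without rats 8 and 11, and 0.045 without rats 8, 11 and 27 with the covariate, and Atf3 was at 0.016 with voom. Leaving out 1 library gave -2.23 to 0.043 for Fosb, -1.18 to 0.772 for Fos, -0.002 to 0.222 for Pvalb, -0.168 to 0.046 for Ntrk2, -0.192 to 0.056 for Ngfr and -0.139 to 0.152 for Atf3. No paired analysis was possible because each rat gave 1 library and the groups share no replicate numbers in the labels. Groups of 4 and 5 rats with a wide spread at week 11 limit what could be detected, and for a gene such as Cd74, with an SE of 0.47, only large differences could have been called.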

Other observations

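Genes and lists not detailed above gave further values for week 11 against week 5 sham ganglia, none called by edgeR with all libraries. Cdh1 (E-cadherin), an adhesion molecule also made by some sensory neurons, was listed with the satellite glia markers. It averaged 412 ± 56.6 CPM at week 11 and 472 ± 44.9 CPM at week 5 (log2 fold change -0.19, SE 0.09). Spp1 (osteopontin), a secreted phosphoprotein, was listed with the markers of proprioceptors and other large neurons. It averaged 1231 ± 225 CPM at week 11 and 1089 ± 130 CPM at week 5, with overlap. Tcf4, a transcription factor, was at 5.39 CPM in rat 8 and between 10.2 and 14.4 CPM in the other week 11 rats, against 5.33 to 11.3 CPM at week 5, and was called higher in the fit without rats 8 and 27 with the covariate (0.75, adjusted p = 0.0165). Of 37 tested proteasome subunits 28 were positive (median 0.03, and -0.10 without rats 8 and 11), and of 19 tested genes of the unfolded protein response 6 were positive (median -0.04). Of 46 tested axon guidance genes 29 were positive (median 0.06).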
